A study of Drosophila melanogaster with 2 samples.

Results

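The regions described here have weak Mnt-eGFP signal, lie at annotated transcription start sites (TSSs) and lack the canonical E-box CACGTG. They were chosen by their measured signal, by their distance to a TSS and by their sequence. A pooled region was taken when its signal was below the lowest signal of the authors' reproducible ("optimal") list, 77.1, when its summit lay within 500 bp of a TSS, and when no CACGTG lay within 100 bp of the summit. This held for 7362 of the 30000 pooled regions, of which 22549 were below the threshold. Signal, TSS distance and the absence of CACGTG are therefore given as descriptions and not as findings.

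The series is a chromatin immunoprecipitation with sequencing (ChIP-seq) of Mnt fused to GFP, pulled down with an antibody against GFP. There was 1 group with 2 biological replicates, each of whole adult female Drosophila melanogaster of unknown age from 1 transgenic line that stably makes Mnt with GFP at its C-terminus, and the labels name no promoter for the fusion. The deposited values are lists of regions with a summit, a signal and a −log10 q-value, both the authors' own values for each region. With 1 group no test between groups was possible, the lists give no read counts, and in chromatin of whole flies binding in few cells and weak binding in many cells cannot be told apart.

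Mnt is a transcriptional repressor with a basic helix-loop-helix leucine zipper (bHLH-zip) domain. It pairs with Max, and the dimer binds the E-box that Myc-Max dimers use at genes of growth and ribosome production. In Drosophila many promoters of broadly used genes carry other elements: the DRE, bound by the transcription factor Dref, Motif 1 (GGTCACAC), bound by M1BP, and Motif 6 (GGTATTTT). GA repeats are bound by the GAGA factor, and CAGCTG by other bHLH dimers.

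The sequences below show what lay at such regions when CACGTG did not. The first 4 come from the 12 best-ranked regions, over both single-replicate lists, that stood alone. These had no optimal summit within 1000 bp and no overlap with an optimal region. Ranks are those of the strongest overlapping replicate region, whose summit was often over 200 bp from the pooled one. The other sequences are at the strongest lone regions with a given motif. Each is read in the direction of the nearest gene from the Release 6 genome (dm6), with at most 30 bases. Capitals mark the motif, on either strand, or the single summit base where the window held no motif of the panel.

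SkpA, summit in a 5′ UTR, chrX:656539-656568, plus strand: ttcgcaaccacaagaAaaacgaacatacgc
CG4199, summit in an intron, chrX:2070830-2070859, minus strand: cagtttccctgtggAtatccaatagcatgg
schlank, Motif 6, intergenic, chrX:6267287-6267316, minus strand: ttagtgcatttGGTATTTTgtgtagcttct
Hip14, Motif 6 on the opposite strand, intergenic, chr3L:15988175-15988204, plus strand: acctcttcttaAAAATACCaaacaagttgc
et, DRE, intergenic, chrX:19675922-19675951, minus strand: ctggctgtcccTATCGATAtgctccatcca
alphaTub84D, Motif 1, across the TSS, chr3R:7530741-7530770, plus strand: ttcccaccggcGGTCACACttaatctactg
CG32365, CACGCG on the opposite strand, 5′ UTR, chr3L:7869062-7869091, plus strand: gccgggaaaagtCGCGTGaattacgagaag
CG43367, CAGCTG, intergenic, chr3L:4193960-4193989, plus strand: agaagaagcaatCAGCTGttgccgttttca

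At et, which encodes a receptor-family protein, the middle of the DRE lay at -46 bp from the TSS and the summit at -37 bp. The pooled signal there was 76.7, with 35.6 in replicate 1 and 37.9 in replicate 2. At alphaTub84D, an alpha-tubulin gene, the pooled signal was 73.3 and the replicates gave 54.6 and 20.2. At CG32365 the replicates were farther apart, 61.9 and 13.5, for a pooled signal of 76.8. CG43367, with CAGCTG at -18 bp from its TSS, had 76.9 in the pooled list, 61.2 in replicate 1 and 27.3 in replicate 2. In these 4 regions replicate 2 was higher than replicate 1 at et alone.

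Signals of the 7362 regions ran from 13.6 to 77.01, with a median of 32.6 and quartiles at 21.1 and 50.5. The −log10 q-value had a median of 1.31. It passed the level of q = 0.05 in 3698 regions (50.2%), and 461 regions (6.26%) stood at the list's cap of 4.22, where all optimal peaks stand. Just below the threshold were CG33969 (77.01), CG15771 (76.96), nvy (76.95), CG32772 (76.95) and pippin (76.94). Just above it, among optimal peaks at a TSS without CACGTG, were Lsd-1 (77.1), Mdh2 (77.11), Gdap2 (77.12), Caf1-55 (77.17) and mthl10 (77.18). The 5 regions below and the 5 above thus lie in a narrow band of pooled signal. Their replicate values did not follow that order: CG33969 had 71.6 in replicate 1 and no region in replicate 2, pippin had none in replicate 1 and 61.1 in replicate 2, and Gdap2 had 35.6 and 35.0.

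The 5 weakest were at CG31637 (13.59), Mical (13.6), CG30089 (13.6), CG42365 (13.6) and Vps15 (13.61). Of these, CG42365 and Vps15 lay 203 and 204 bp from an optimal summit. The region overlapping CG42365 had a signal of 107.7 in replicate 1 and 20.7 in replicate 2, with summits 204 and 153 bp away. The Mical region overlapped a replicate 1 region of 12.1 and none of replicate 2. A replicate value of a weak region can thus belong to a stronger neighbour.

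Most of the regions were seen in both replicates in the loose sense that a region of each single-replicate list, 30000 regions long and with weak background included, overlapped them by 1 bp or more. This was so for 5235 of 7362 (71.1%, 95% exact interval 70.1 to 72.1%). Over all 22549 sub-threshold regions the share was 57.3%. For the 14181 sub-threshold regions away from a TSS and without CACGTG it was 49.8% (49.0 to 50.7%), and for the 4947 optimal peaks at a TSS without CACGTG 97.0% (96.5 to 97.5%). Replicate 1 listed 92.7% and replicate 2 listed 76.5%. Replicate 1 alone listed 1591 regions, replicate 2 alone 400, and neither listed 136. Intervals here cover counting error and treat regions as independent, which neighbours are not.

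Part of that difference went with signal. In the lowest signal quartile 44.1% (41.8 to 46.4%) were listed in both replicates, against 23.8% (22.8 to 24.9%) of sub-threshold regions away from a TSS in the same signal range. In the second quartile the shares were 67.0% (64.8 to 69.1%) and 59.1% (57.5 to 60.8%). In the third they were 82.6% (80.8 to 84.3%) and 83.0% (81.5 to 84.5%), and in the highest 90.8% (89.4 to 92.0%) and 93.2% (91.8 to 94.4%). The higher share at TSSs was thus seen in the lower quartiles and not in the upper ones. Regions beside an optimal peak were more common at TSSs, 12.5% against 2.02% in the lowest quartile.

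**Figure D1:**
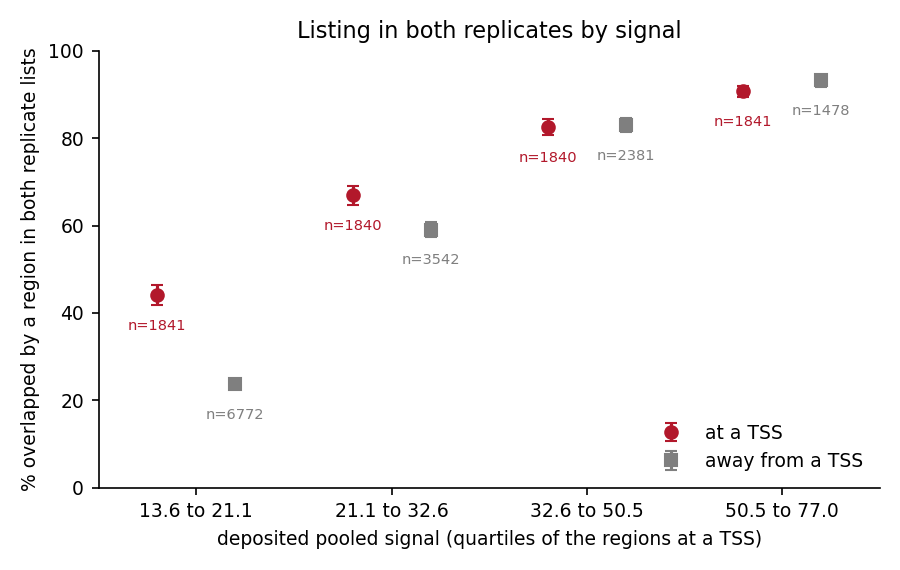
Share of sub-threshold regions without CACGTG that were overlapped by a region in both single-replicate lists (vertical axis, percent), by quartile of deposited pooled signal (horizontal axis). Circles are regions at a TSS, squares are regions away from a TSS, bars are 95% exact intervals and n is the number of regions; the sets differ in the lowest quartile (44.1% and 23.8%) and lie close together in the third (82.6% and 83.0%).

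Stricter matching lowered the shares in every set. With a summit of each replicate's overlapping region within 200 bp, 34.4% (33.3 to 35.5%) matched, against 27.5% (26.7 to 28.2%) away from a TSS and 81.1% (80.0 to 82.2%) of optimal TSS peaks. Signals were higher in replicate 1: over the 5235 regions listed in both, the medians were 39.1 and 19.4 and the median ratio 1.95. The replicate signals had a Spearman correlation of 0.60 over these regions, as a description, and 0.275 over the 3298 of them that stood alone. Where regions stood alone, the replicate medians were 29.8 and 15.1. Among the 7451 strongest regions of each replicate, the number in the optimal list, were matches to 1142 of the sub-threshold TSS regions (15.5%), of which 1093 lay beside an optimal peak and 35 stood alone.

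**Figure D2:**
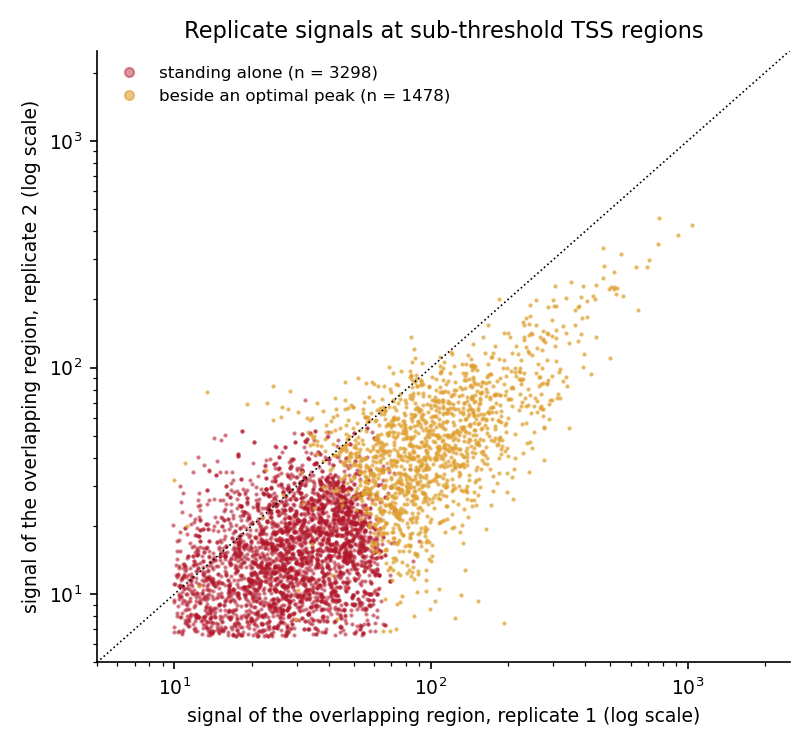
Signal of the overlapping region in replicate 1 (horizontal, log scale) and replicate 2 (vertical, log scale), 1 point per sub-threshold TSS region listed in both. The 3298 regions that stood alone have medians of 29.8 and 15.1, the 1478 beside an optimal peak have medians of 93.02 and 45.0, and most points lie below the dotted line of equal signal; regions between those classes are not drawn.

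Beside an optimal peak, within 500 bp of its summit or overlapping it, lay 1522 of the 7362 regions (20.7%, 19.8 to 21.6%). The share over all sub-threshold regions was 10.1%, and away from a TSS 4.82% (4.48 to 5.19%). None of the 1522 summits was closer than 199 bp to the optimal summit, and 1088 (71.5%) were within 210 bp, with a median of 204 bp. They flanked 1505 optimal summits, 1477 of them overlapped the optimal region itself, and the optimal signal was a median 3.77 times theirs. In 712 pairs (46.8%) the TSS lay between both summits. The other extreme, regions standing alone, numbered 5180 (70.4%).

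Summits crowded at the TSS within the 500 bp that the rule allowed, but less tightly than those of optimal peaks. The median distance was 130 bp, against 63 bp for optimal TSS peaks without CACGTG, and 43.4% (42.2 to 44.5%) against 65.3% (63.9 to 66.6%) lay within 100 bp. Upstream of the TSS lay 55.8% and 58.7%. In the lowest signal quartile the median distance was 173 bp, and in the highest it was 81 bp. Regions standing alone had their highest 50 bp bin just upstream of the TSS, with 15.8% of summits. Regions beside an optimal peak had theirs from 150 to 200 bp downstream, with 10.7%, and 850 of the 1522 lay downstream. These summits all lay 199 bp or more from an optimal summit, so their positions were not independent of it.

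**Figure D3:**
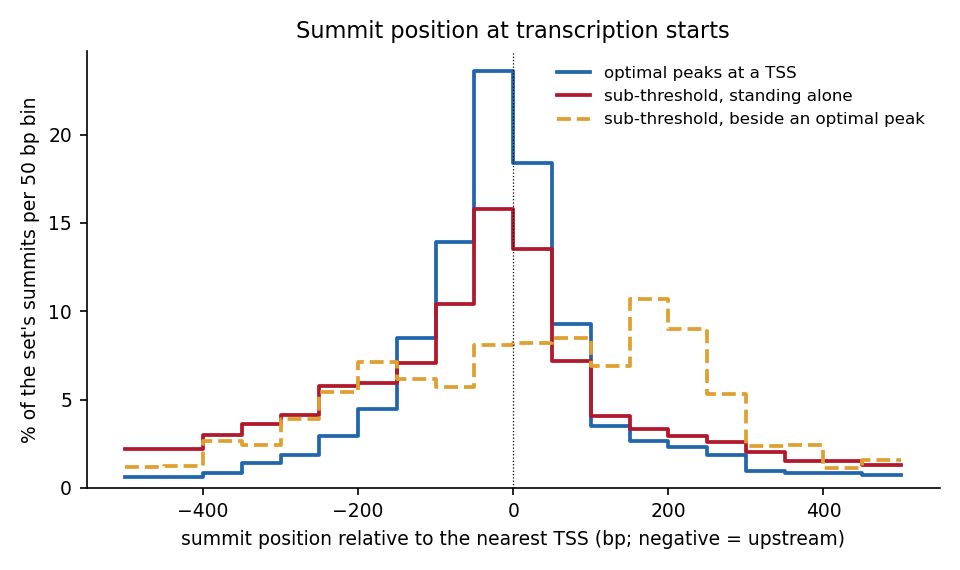
Position of summits relative to the nearest TSS (horizontal axis, bp, negative upstream) as the percentage of each set per 50 bp bin (vertical axis). The 4947 optimal peaks at a TSS and the 5180 lone sub-threshold regions are highest from -50 to 0 bp (23.6% and 15.8%), while the 1522 sub-threshold regions beside an optimal peak are highest from 150 to 200 bp (10.7%). Summits of this last set all lay 199 bp or more from an optimal summit.

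By annotation, 2304 summits (31.3%) were intergenic, 2097 (28.5%, 27.5 to 29.5%) in a 5′ UTR, 1889 (25.7%) in an intron, 516 (7.01%) in a coding exon, 364 (4.94%) in a non-coding exon and 192 (2.61%) in a 3′ UTR. Optimal TSS peaks without CACGTG had 39.0% (37.6 to 40.3%) in a 5′ UTR and 2.34% (1.94 to 2.81%) in a coding exon. Median signals were highest in 5′ UTRs (36.4) and intergenic sequence (34.6) and lowest in 3′ UTRs (24.5) and coding exons (25.4). The region width was 456 bp in 97.6%, and in 54.1% of the optimal TSS peaks. The chromosome arms held shares close to those of the annotated TSSs, with 24.0% on 3R (23.3% of TSSs) and 17.0% on X (16.6%), except 2L with 17.3% (16.5 to 18.2%; 19.5% of TSSs).

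The core promoter elements DRE and Motif 1 were less frequent at these summits than at optimal TSS peaks. A motif counted when it lay on either strand within 100 bp of the summit. The DRE, TATCGATA, was found at 260 regions (3.53%, 3.12 to 3.98%), against 8.15% (7.40 to 8.94%) of optimal TSS peaks without CACGTG, 7.5% of 13944 promoter windows of the same length around 1 TSS per protein-coding gene, and 0.494% of sub-threshold regions away from a TSS. Motif 1, GGTCACAC, was at 3.36% (2.96 to 3.79%), 7.44% (6.72 to 8.21%), 6.52% and 0.247% of these sets. Motif 6, GGTATTTT, was at 2.77% (2.41 to 3.17%) against 3.62% (3.12 to 4.18%) of optimal TSS peaks. Any of the 3 was at 8.84% against 17.5%. CACGTG itself lay between 100 and 250 bp from the summit in 4.13% (3.69 to 4.61%) against 5.82% (5.19 to 6.51%).

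Distance to the TSS went with part of this difference. Among the 3192 regions with a summit within 100 bp of a TSS the DRE was at 6.74% (5.89 to 7.66%), against 11.3% (10.2 to 12.4%) of the 3229 optimal peaks that close. Any of the 3 elements was then at 16% and 23.7%. The share with a DRE was 1.36% in the lowest signal quartile, 2.83% and 3.53% in the middle quartiles and 6.41% in the highest. Regions with a DRE had a median signal of 47.1, against 32.3 without, and a median distance to the TSS of 46 bp against 135 bp. For Motif 1 the medians were 44.9 against 32.3 and 36 bp against 135 bp. Both replicates listed 69.2% of regions with a DRE, close to the 71.1% of all.

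E-box variants gave another order. CACGCG, a noncanonical E-box, was at 7.00% (6.42 to 7.6%) of summits, 10.1% (9.32 to 11%) of optimal TSS peaks, 5.87% of promoters and 5.24% of sub-threshold regions away from a TSS. CATGTG was at 8.86% (8.22 to 9.53%), below optimal TSS peaks (12.1%, 11.3 to 13.1%) and below regions away from a TSS (13.3%, 12.8 to 13.9%). CATGCG was at 6.06% and 6.61% of optimal TSS peaks, with intervals that overlap. CAGCTG was at 11.5% (10.8 to 12.3%), against 15.9% (14.9 to 17.0%) of optimal TSS peaks and 13.8% of promoters.

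The remaining motifs were about as frequent as at optimal TSS peaks. The GAGA element, GAGAGA, was at 11.6% (10.9 to 12.4%) against 12.3% (11.4 to 13.2%), and at 8.60% of promoters. The GATA motif, AGATAA, was at 12.6% (11.8 to 13.4%) against 11.4% (10.5 to 12.3%). The AP-1 site, TGAGTCA, was at 2.09% against 1.74%, and TATAAA at 23.3% against 24.7% and at 28.9% of promoters. Of all distinct 6-mers counted on both strands, those with the highest ratio to promoter windows, among 6-mers in at least 2% of the summit windows, were runs of C and G: CCCCCC (3.29% against 1.5%), AGGGGG (5.23% against 2.40%), CCCCTC (4.66% against 2.33%), CCCCCG (4.01% against 2.07%) and GCCCCC (5.19% against 2.78%). Optimal TSS peaks had these at 3.32%, 5.05%, 4.35%, 3.46% and 4.61%. Lowest were parts of the DRE and its flank. CGATAG was in 9.93% of the windows and in 15.8% of promoters, ATCGAT in 11.5% and 18.3%, and TATCGA in 14.2% and 22.2%. Next lowest were GGTCAC, part of Motif 1 (7.8% and 11.8%), and ACGGTC (4.84% and 6.91%). Promoter windows were centred on a TSS, whereas the summits lay a median 130 bp from one. Promoters of genes with weak regions only had the DRE at 7.43%, and all promoters at 7.5%. How far window placement bears on these ratios was not tested. The median GC content of the summit windows was 42.8%, and 42.3% at optimal TSS peaks.

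**Figure D4:**
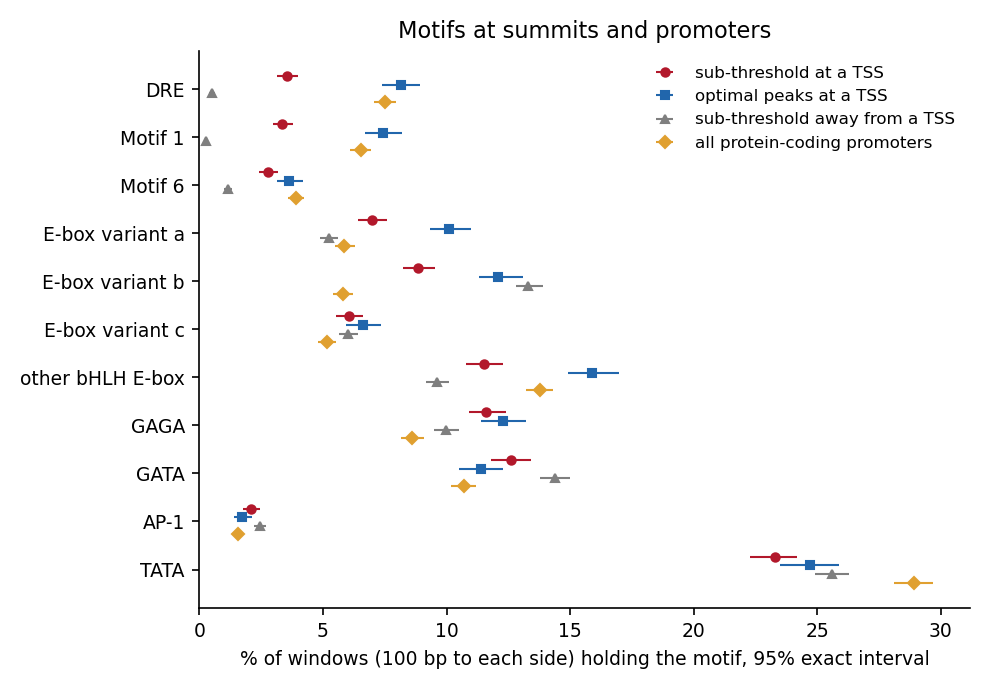
Percentage of windows of 100 bp to each side that hold each motif on either strand (horizontal axis, bars are 95% exact intervals), centred on summits of 7362 sub-threshold TSS regions, 4947 optimal TSS peaks and 14181 sub-threshold regions away from a TSS, all without CACGTG, or on 13944 promoters. E-box variant a is CACGCG, variant b is CATGTG and variant c is CATGCG; the sub-threshold TSS regions lie below optimal peaks for the DRE (3.53% and 8.15%) and close to them for GAGA (11.6% and 12.3%).

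At the level of genes, 3376 of 13945 protein-coding genes (24.2%, interval 23.5 to 24.9%) had such a region and no optimal summit within 500 bp of any TSS. With regions listed in both replicates only, the number was 2090. Another 5316 genes (38.1%) had an optimal summit, 78 had only sub-threshold regions with CACGTG, and 5175 had none. Over all 18164 annotated genes, 4224 (23.3%) had such regions only. The median signal of the strongest region per protein-coding gene was 37.9. Of the 7362 regions, 1377 (18.7%) lay within 500 bp of 2 or more genes, and 2683 (36.4%) at a gene that also had an optimal summit. The DRE was at 7.43% (6.57 to 8.37%) of promoters of genes with weak regions only, at 12.8% of promoters with an optimal summit and at 2.09% of promoters with no region. For CAGCTG the shares were 14.5%, 19% and 7.96%, and for TATAAA 26.1%, 22.9% and 37.0%. The order was another for CATGTG, with 5.04%, 6.74% and 5.33%, for the GATA motif, with 11.8%, 9.82% and 10.9%, and for the AP-1 site, with 1.66%, 1.43% and 1.64%.

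Transfer RNA genes, read by RNA polymerase III, had weak regions more often than optimal peaks. Of 290 tRNA genes 142 had weak regions only (49.0%, 43.1 to 54.9%), 35 had an optimal summit and 110 had none, against the 23.3% over all annotated genes. The same order held for genes annotated as non-coding RNA (601 and 326), small nucleolar RNA (65 and 37), small nuclear RNA (8 and 6) and pseudogenes (31 and 15). Protein-coding genes had the opposite order. The share with weak regions only was 18.4% for non-coding RNA genes and 11.6% for pseudogenes, below the 23.3% of all annotated genes. For the 32 small nuclear RNA genes it was 25%, near that share. A tRNA start was the nearest for 127 regions, and 9 of these were also within 500 bp of a protein-coding TSS. Their summits had a median position 2 bp downstream of the tRNA start. The median signal was 28.7, 93 (73.2%) were listed in both replicates, and 8 (6.30%) lay beside an optimal peak. The strongest, on 3L at 3096208, had 73.9 in the pooled list, 51.4 in replicate 1 and 20.6 in replicate 2, and served 4 genes, tRNA:Cys-GCA-1-1, tRNA:Cys-GCA-1-2, tRNA:Cys-GCA-1-3 and tRNA:Lys-CTT-1-12. Next were regions at the tRNA:Leu-CAG cluster on 3L, with 72.98 (54.8 and 12.6) at tRNA:Leu-CAG-1-3 and 71.99 (53.2 and 17.8) at tRNA:Leu-CAG-1-6. By amino acid, 15 of 26 arginine, 14 of 22 leucine, 10 of 14 aspartate and 8 of 10 asparagine tRNA genes had weak regions only, whereas 6 of 12 glutamine genes had an optimal summit. Copies of a tRNA can be near-identical, and whether reads were shared between them was not tested. Among 269 small nucleolar RNA genes 65 (24.2%, 19.2 to 29.7%) had weak regions only, close to the share over all genes.

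Of 46 gene lists, 21 had a higher share of genes with weak regions only than the 24.2% of all protein-coding genes. These shares are counts with no test, and list members that neighbour each other can share a region. Where most genes of a list had an optimal summit, few were left to be counted. All 23 nucleolar and ribosome biogenesis genes and all 10 genes of the Myc network had an optimal summit (replicate 2 alone left 1 Myc network gene with weak regions only). Of 86 cytosolic ribosomal protein genes 81 had one and 3 had weak regions only: RpS15Ab (54.8; 38.1 in replicate 1 and 17.3 in replicate 2), RpS5b (36.7; 60.5 and none) and RpS10a (26.6; 21.02 and none). With replicate 2 alone the count was 5, and with regions listed in both replicates it was 1. All 3 have a paralogue among the ribosomal protein genes, and whether reads were shared between copies was not tested. The RpS15Ab summit, at -34 bp from the RpS15Ab TSS, was nearer to a TSS of Lsm10. The 111 replication-dependent histone genes, in a tandem array of near-identical copies, had neither kind of region.

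Genes of digestion had the highest share of the whole list among the 46 lists. Of 45 digestive enzyme genes (trypsins, Jonah proteases, amylases, maltases and lysozymes of the gut) 29 had weak regions only (64.4%, against 24.2% of all) and 2 had an optimal summit. Of the 43 without an optimal summit this was 67.4%, against 39.1% over all protein-coding genes and below such lists as the mitochondrial ribosomal proteins (94.1%) and DNA replication (83.3%). Replicate 1 alone gave 27 and replicate 2 alone 22. The region of the maltase gene Mal-B2, 44 bp downstream of its TSS, had a signal of 71.1, with 38.5 in replicate 1 and 30.1 in replicate 2. That of the trypsin gene etaTry had 56.1, with 23.5 and 27.1, and that of Mal-A2 had 54.5, with 28.8 and 23.7. At these 3 genes the replicates were closer to each other than the median ratio of 1.95, and replicate 2 was higher at etaTry. The 29 genes had a median signal of 27.7, and 18 of the strongest regions were listed in both replicates.

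Detoxification genes had weak regions often too. Of 83 cytochrome P450 genes 35 had them only (42.2%, against 24.2% of all protein-coding genes) and 20 had an optimal summit. Cyp9b2 had 56.3 (45.7 in replicate 1 and 8.57 in replicate 2), Cyp6d4 had 53.2 (42.4 and 10.3) and Cyp9f2 had 48.2 (46.3 and 27.9). For the glutathione S-transferases, which conjugate glutathione to toxins, the count was 13 of 35, with 14 at an optimal summit. GstE7 (60.2; 26.1 and 30.1), GstE6 (58.1; 46.6 and 9.06) and GstE9 (53.6; 42.5 and none) lie in 1 gene cluster. With replicate 2 alone the count of glutathione S-transferases was 8. Among genes without an optimal summit the shares were 55.6% for cytochrome P450s and 61.9% for glutathione S-transferases. Over all protein-coding genes this share was 39.1%, and for spliceosome genes 88.9%. With only regions above the median signal the counts were 16 and 5, and 1981 (of 3376) over all protein-coding genes.

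Genes of some tissues had weak regions often as well, but those of others did not. Weak regions only were at 57.1% of eggshell and yolk, 55.6% of muscle, 52.6% of neuronal and 39.4% of germline genes. Over all protein-coding genes the share was 24.2%. Among genes without an optimal summit the shares of these lists were 66.7%, 76.9%, 58.8% and 59.1%, against 39.1% over all. By that measure spliceosome genes, with 88.9%, were above each of these lists. Other lists of this kind went both ways. Fat body and lipid genes had weak regions only at 30.4%. Chemosensory receptor genes (5.03%), cuticle protein genes (3.31%) and male-specific Mst genes (11.1%) were below the 24.2% of all. Of 14 eggshell and yolk genes 8 had weak regions only and 2 an optimal summit. At the chorion gene Cp15 the signal was 58.3 (47.4 in replicate 1 and 21.4 in replicate 2), and at the yolk protein genes Yp1 and Yp2 it was 45.9 (31.6 and 15.1) and 33.8 (21.5 and 13.5). Of 18 muscle genes 10 had weak regions only and 5 an optimal summit, among them the troponin I gene wupA with 64.8 (46.8 and 19.7) and the titin-like sls with 54.3 (49.7 and none). Of 19 neuronal genes the counts were 10 and 2. The complexin gene cpx, a regulator of synaptic vesicle fusion, had 59.6 (34.5 and 23.6) and the potassium channel gene Sh had 52.8 (23.9 and 29.7). With replicate 2 alone the neuronal count was 6. Of 33 germline and piRNA genes 13 had weak regions only and 11 an optimal summit, with piwi at 65.5 (60.1 and none) and BicD at 60.4 (49.0 and 20.5). The piwi summit, at -221 bp from the piwi TSS, was nearer to a TSS of CG12253.

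Homeotic and segmentation genes, which pattern the embryo, had weak regions of low signal. Weak regions only were found at 16 of 26 (61.5%, against 24.2% of all protein-coding genes), and an optimal summit at 1. Of the 25 without an optimal summit this was 64.0%, against 39.1% over all. The 16 genes had signals from 13.9 up, near the lowest of the list. Their median signal was 20.9, below the 37.9 of all protein-coding genes with weak regions only. Replicate 1 alone gave 10 genes and replicate 2 alone 9. With regions listed in both replicates only, 4 genes were counted, and with regions above the median signal only, 2. The maternal gene bcd had 59.5 (56.5 in replicate 1 and no region in replicate 2), cad had 54.8 (50.6 and 18.1) and the pair-rule gene odd had 32.0 (26.9 and 12.5). The Hox genes Ubx (16.3) and Dfd (17.0), named after their values were seen, had no region in either replicate list.

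Genes of DNA replication, like those of several other lists, had weak regions nearer to the threshold. Of 32 replication factor genes 15 had weak regions only (46.9%, against 24.2% of all protein-coding genes). Another 14 had an optimal summit, 1 another sub-threshold region and 2 none. The median signal was 64.5, against 37.9 over all protein-coding genes with weak regions only. It was 67.3 for the TCA cycle, and 61.5 for both insulin and TOR signalling and autophagy. PolD1, the catalytic subunit of DNA polymerase delta, had 73.01 (62.1 in replicate 1 and 30.4 in replicate 2), but the summit stood at position -442 relative to the PolD1 TSS and at position 21 relative to that of Hip14, in a 5′ UTR. The Psf3 region (72.7; 55.1 and 24.8), at -92 bp from the TSS of this GINS subunit gene, is at -7 bp from that of flw. At Orc5, of the origin recognition complex, the summit lay 2 bp from the TSS with 70.2 (62.2 and 10.5). Replicate 1 alone gave 9 such genes and replicate 2 alone 10. Among 22 cell cycle genes 8 had weak regions only, with the Cdc25 phosphatase gene stg at 59.4 (30.9 and 31.3) and Cdk4 at 59.1 (45.5 and 14.02).

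Energy and translation genes without an optimal summit differed by list in how often they had weak regions. The shares were 94.1% for mitochondrial ribosomal proteins, 46.8% for oxidative phosphorylation, 44.4% for aminoacyl-tRNA synthetases and 32% for the proteasome. Over all protein-coding genes without an optimal summit the share was 39.1%. Of 73 mitochondrial ribosomal protein genes 56 had an optimal summit, 16 weak regions only and 1 none. The 16 had a median signal of 55.7, led by mRpL49 (76.1; 56.3 in replicate 1 and 20.4 in replicate 2), mRpL36 (75.04; 59.7 and 17.03) and mRpS9 (65.7; 44.7 and 19.6). For oxidative phosphorylation 43 of 90 genes had an optimal summit, 22 weak regions only and 24 neither kind, with ND-19 of complex I at 75.4 (61.0 and 14.4) and COX5B of complex IV at 73.1 (45.4 and 28.5). Of 33 aminoacyl-tRNA synthetase genes 24 had an optimal summit, 5 no region and 4 weak regions only, and the 3 strongest of these are mitochondrial enzymes: CysRS-m (71.7; 53 and 18.3), TrpRS-m (71.1; 60.7 and 12.2) and SerRS-m (45.8; 36.1 and 15.7). With replicate 2 alone 9 synthetase genes were counted. Tpi was the only glycolytic gene of 13 counted, at 58.6 (66.01 and 14.8); replicate 1 alone gave 0 and replicate 2 alone 2. The proteasome had 8 of 48 and no region at 16, with Prosalpha6 at 76.8 (52.4 and 27.5), and replicate 2 alone gave 15. The Prosalpha6 summit, in an intron at -347 bp from the Prosalpha6 TSS, was nearer to a TSS of Npc1a.

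The remaining lists spread on both sides of the 24.2% of all genes. Developmental signalling genes had weak regions only at 13 of 31 (41.9%), among them the EGF-receptor ligand gene spi at 71.98 (49.98 in replicate 1 and 23.2 in replicate 2). The Mediator complex had 8 of 29, nuclear pore proteins 7 of 25 and general transcription factors 7 of 27, with Tbp, the TATA-binding protein gene, at 72.5 (59.01 and 15.8). Of the insulin and TOR genes 4 of 21 were counted (2 with replicate 2 alone), of the Hippo pathway 4 of 16 and of the circadian clock 3 of 13. Cuticle protein genes had weak regions only at 4 of 121 and chemosensory receptor genes at 9 of 179. With replicate 2 alone those counts were 15 and 34. Antimicrobial peptide genes had 4 of 20, with signals of 17.9 at AttA, 14.7 at DptB and 14.2 at Dro, each listed in 1 replicate, and replicate 2 alone gave 0.

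**Figure D5:**
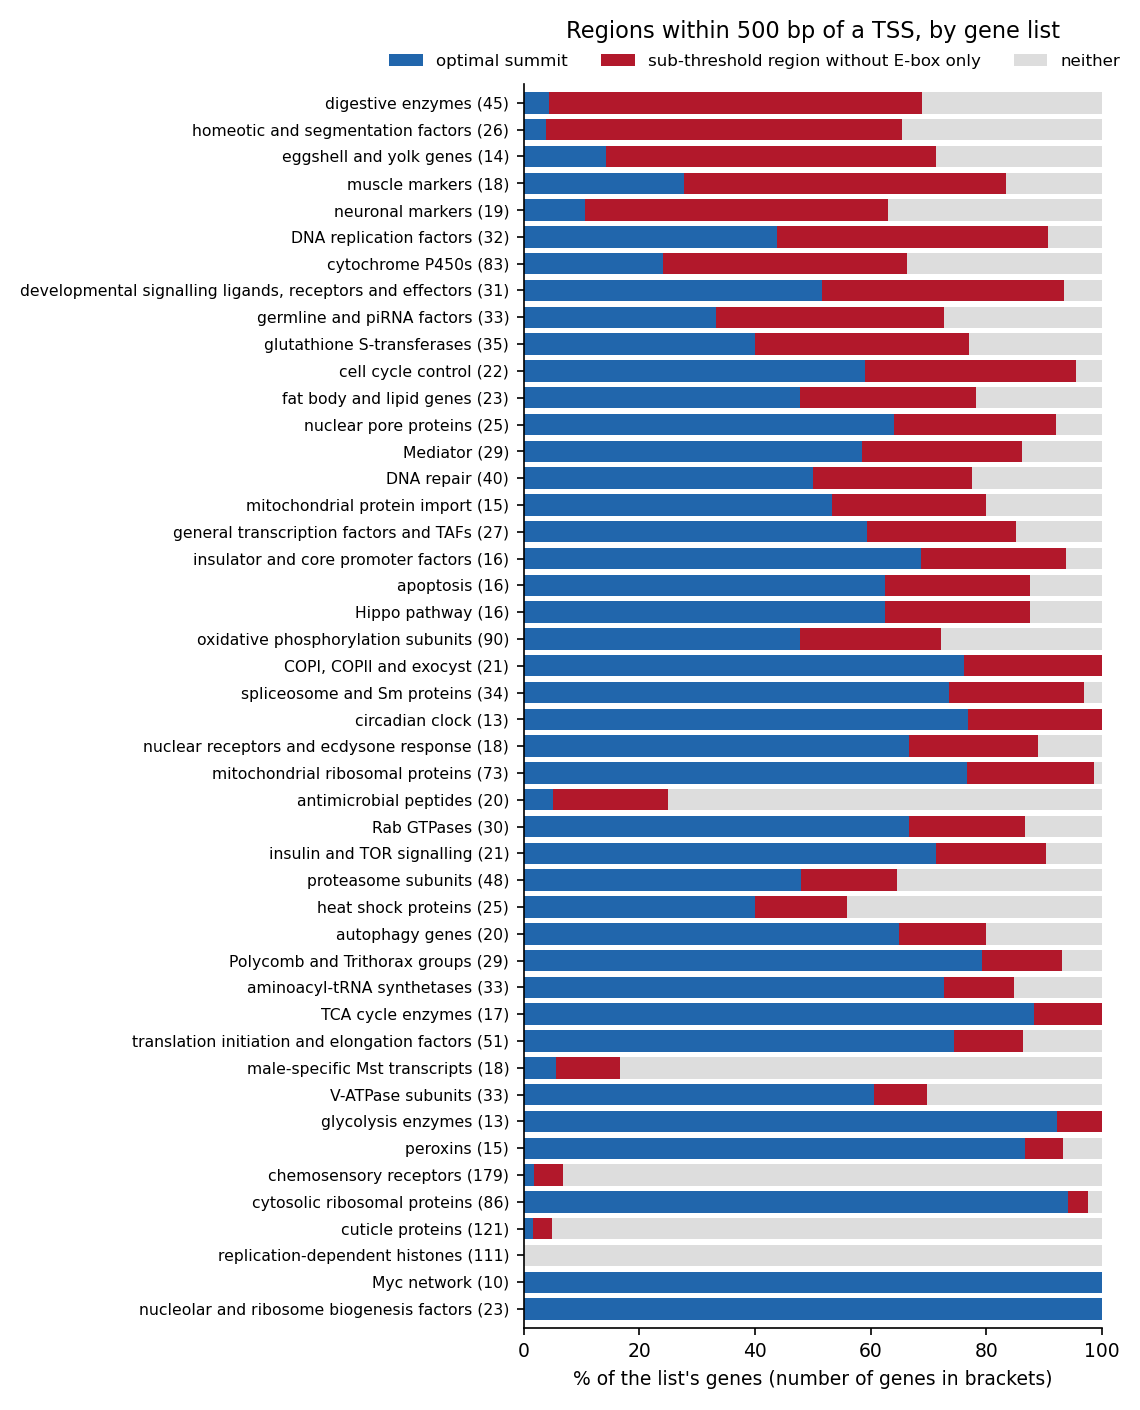
Share of each list's genes (horizontal axis, percent) with an optimal summit within 500 bp of a TSS, with sub-threshold regions without CACGTG only, or with neither; each bar is 1 list with its number of genes in brackets, sorted by the middle share. Digestive enzymes (29 of 45) are at the top, and nucleolar genes (0 of 23, all with an optimal summit) are at the bottom.

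The lone regions whose overlapping replicate regions ranked best were at genes of many kinds. Ranks and replicate signals are those of the strongest overlapping region, whose summit was often over 200 bp from the pooled one. Both replicate summits lay within 200 bp only at the Hip14 region with a pooled signal of 73.01 (0 and 176 bp). SkpA, an adaptor of SCF ubiquitin ligases, led with rank 4632 in replicate 1 (82.9) and 5343 in replicate 2 (35.6), for a pooled signal of 60.4. The overlapping replicate summits lay 323 and 217 bp from the pooled one. Next came Dgp-1 (56.7; 71.6 in replicate 1 and 34.1 in replicate 2), the only one of the 12 with a DRE. CG4199 (75.9; 68.6 and 34.5) followed, and then the ceramide synthase gene schlank. The pooled signal of schlank was 26.05, far below its replicate values of 67.8 and 36.1, whose summits lay 395 and 93 bp away. The ceramide transfer gene cert, the histone deacetylase complex gene Sap30 and the palmitoyltransferase gene Hip14 each gave 2 of the 12, and the pairs at Sap30 and Hip14 matched the same replicate regions. The rest were lqf (71.9; 64.9 and 35.4), an epsin gene of endocytosis, and rhea (25.2; 63.9 and 30.5), the talin gene. Of the 12 summits, 3 had Motif 6, and 5 had no motif of the panel. Motif 6 was at 2.61% of all 5180 lone regions, and a set of 12 is too small to give a rate.

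Taking each replicate's own list through the same rule, with its 7451 strongest regions in the place of the optimal list, gave 7427 regions in replicate 1 and 6391 in replicate 2 (mean 6909 ± 733, SD, n = 2). The DRE was then at 3.46% and 3.63% (mean 3.55% ± 0.12, SD, n = 2) and the 5′ UTR held 29.6% and 26.7% (28.1% ± 2.1, SD, n = 2). Protein-coding genes with weak regions only numbered 3308 and 3278 (3293 ± 21.2, SD, n = 2). Beside one of the strongest regions lay 20.0% and 20.6% (20.3% ± 0.40, SD, n = 2).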

How the data were processed

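Per the labels, chromatin of whole adult female flies was sheared by sonication and immunoprecipitated with an antibody against GFP. The authors deposited lists of regions per replicate, pooled and thresholded by the irreproducible discovery rate (optimal), each with a signal and a −log10 q-value from their caller. The names of caller and aligner were not given in the sources used here. Read depth is unknown. Control libraries and the dm3 lists were not used here.

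The dm6 lists were set against the Release 6 sequence and Ensembl release 115 annotation (35497 transcripts; transposable elements left out). The optimal list holds the 7451 pooled regions with the highest signal. Where annotations overlap, a summit was put in a 5′ UTR before a coding exon, then a 3′ UTR, a non-coding exon and an intron. Where several replicate regions overlapped a pooled region, the strongest was taken. Shares have 95% exact (Clopper-Pearson) binomial intervals, which cover counting error only. No test was run, since 1 group of 2 replicates allows none over samples.

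Members, gene lists and motifs were chosen with earlier results of these data known, and gene symbols were updated to the annotation. Genes named were the 5 highest and 5 lowest regions and the 5 just above the threshold, the 12 lone regions with the best worse rank in both replicates, and up to 3 genes per list by signal, unless stated. Alternatives were other distances, windows, TSS sets and overlap rules, the stronger members, collapsed summits and each replicate alone. The steps were tested on simulated regions. Python 3.11.15, numpy 2.4.6, pandas 2.3.3, scipy 1.17.1 and matplotlib 3.10.9 were used.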

Additional observations from a re-analysis of the deposited data

How the results depend on the processing

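No paired analysis was possible because there is 1 group. Keeping members above the median signal left 3681, and keeping 1 summit, the strongest of all pooled regions closer than 400 bp, optimal peaks included, left 4744 (6238 where only members were collapsed among themselves). Genes with weak regions only numbered 1981 above the median signal and 2090 with regions listed in both replicates, an alternative chosen after seeing the data, as was that of lone regions. The share listed in both replicates was 67.4% at a TSS distance of 1000 bp, 72.2% with protein-coding TSSs, 86.7% above the median, 61.0% with collapsed summits, 34.4% with summits within 200 bp and 63.7% for lone regions. It has no value with 1 replicate. The share beside an optimal peak was 17.3% at 1000 bp, 22.1% with protein-coding TSSs, 20.2% without an E-box within 250 bp, 25.6% above the median, 1.31% with collapsed summits, 29.6% with an optimal summit within 1000 bp and 28.2% for regions listed in both. The DRE share was 4.49% at 250 bp, 2.75% at 1000 bp, 3.81% with protein-coding TSSs, 4.97% above the median, 4.05% with collapsed summits, 2.11% in windows of 50 bp and 3.67% for lone regions. The 5′ UTR share was 34.2%, 22.6%, 31.4% and 32.3% under the first 4 of these, and 25.9% for lone regions. The cause of these differences was not tested. With each replicate alone, regions numbered 6391 to 7427, genes 3278 to 3308, lists above the background 23 (21 in the pooled list), the DRE share 3.46 to 3.63%, the 5′ UTR share 26.7 to 29.6% and the share beside a strong region 20.0 to 20.6%. The remaining 39 values stayed within the limits set. Those of single replicates were among them, except the share beside a strong region with replicate 1 alone (20.0%). Counts for single lists moved by over 1.5 times in 76 values and by less in 384. Read depth is unknown, so no limit of detection can be given for regions that were not listed.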
